A study of Mus musculus with 4 samples.

Results

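The 10 genes described here encode transcription factors of naive pluripotency, the state of the early epiblast that mouse embryonic stem cells keep in culture. They were taken by symbol (Klf2, Klf4, Klf5, Nanog, Esrrb, Tfcp2l1, Tbx3, Prdm14, Zfp42 and Nr0b1) from tables of 25239 gene symbols, and all 10 had enough reads to be tested. The libraries held polyadenylated RNA from mouse embryonic stem cells with Ogt fl/fl alleles, in which loxP sites flank the gene of O-GlcNAc transferase. In the Ogt iKO group (2 libraries) the cells had 4-hydroxytamoxifen (4-OHT) in the medium for 6 days, and in the control group (2 libraries) they did not. All cells grew with LIF and serum replacement on mitomycin C-treated embryonic fibroblasts and were sorted as viable cells, a step meant to remove these feeders. Cells of the Ogt iKO group were also selected for YFP. That selection and the exposure to 4-OHT cannot be told apart from the loss of Ogt, and the recombinase that 4-OHT acts on is not given in the sources used here. No label says that the replicates are separate cultures, so p-values measure the spread between these libraries, which may be technical.

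Naive stem cells hold a network in which these factors activate each other and share targets with OCT4 (Pou5f1) and SOX2. LIF feeds the network through STAT3, which acts on Klf4 and Tfcp2l1, and WNT feeds it by lifting the repressor TCF7L1 from Esrrb, Nanog and Tfcp2l1. FGF4 acting through ERK works against it and opens the way to differentiation. Loss of these factors marks the exit from the naive state, and Zfp42 is a common reporter of that state.

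The RNA of all 10 factors was lower in the Ogt iKO libraries, with adjusted p values from 8.95e-07 for Klf4 to 0.00176 for Tbx3 (quasi-likelihood test of edgeR, Benjamini-Hochberg adjusted over all genes). Among all 14525 genes tested, 65.3% were called in either direction, 32.0% lower and 33.2% higher. Scaled by library totals only, 3282 genes were lower and 6116 higher, against 4651 and 4827 here, and all 10 factors were still lower. The median log2 fold change was -0.74 for the 10 factors and 0.02 for all genes tested. In each of the 10, both Ogt iKO libraries lay below both controls, an order found in 40.9% of all genes tested. The falls were unequal. Prdm14, Klf4, Nr0b1 and Nanog fell by more than 2-fold, while Esrrb, Klf5, Tbx3, Zfp42, Klf2 and Tfcp2l1 kept 59.8% to 75.4% of the control level. Of all genes tested, 6.04% were called lower with a fold of at least 2. In bulk RNA, fewer cells that express a factor and less of its RNA per cell cannot be told apart.

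The promoters of the factors are shown first and were searched for binding motifs of the network's own proteins. Whether such motifs bear on the falls was not tested. RefSeq windows on GRCm38.p6, from 250 bases before a start site to 50 bases after it, were on hand for 7 of the 10 genes (9 windows, with 2 each for Nanog and Esrrb). Klf5, Tbx3 and Prdm14 had no entry. Motifs were searched on both strands and are in capitals in the 3 windows printed, each 5′ to 3′ on the strand of its gene. Nanog is chr6:122707239-122707538 on the plus strand, Zfp42 is chr8:43306960-43307259 on the minus strand and Klf4 is chr4:55532426-55532725 on the minus strand.
Nanog: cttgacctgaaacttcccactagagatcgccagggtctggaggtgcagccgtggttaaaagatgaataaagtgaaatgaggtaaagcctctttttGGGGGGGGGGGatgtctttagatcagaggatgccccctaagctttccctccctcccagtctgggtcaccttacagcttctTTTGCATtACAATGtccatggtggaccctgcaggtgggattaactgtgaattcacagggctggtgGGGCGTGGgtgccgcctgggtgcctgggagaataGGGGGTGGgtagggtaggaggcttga
Zfp42: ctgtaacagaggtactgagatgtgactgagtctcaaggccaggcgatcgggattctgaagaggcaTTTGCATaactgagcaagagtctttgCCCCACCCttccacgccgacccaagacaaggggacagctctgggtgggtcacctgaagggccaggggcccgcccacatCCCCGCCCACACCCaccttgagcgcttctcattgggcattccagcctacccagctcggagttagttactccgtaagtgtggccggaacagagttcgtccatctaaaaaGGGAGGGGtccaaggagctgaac
Klf4: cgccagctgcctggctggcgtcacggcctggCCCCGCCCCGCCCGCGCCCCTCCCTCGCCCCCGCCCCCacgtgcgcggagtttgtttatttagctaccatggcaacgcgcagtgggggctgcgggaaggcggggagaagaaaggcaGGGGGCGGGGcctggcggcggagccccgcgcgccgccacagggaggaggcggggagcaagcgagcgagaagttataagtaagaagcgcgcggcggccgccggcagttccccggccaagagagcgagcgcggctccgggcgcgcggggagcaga
The octamer core TTTGCAT, bound by OCT4, begins 75 bases before the start in Nanog, and the SOX core ACAATG follows it 67 bases before the start, with 1 base between them. Zfp42 holds the octamer core 185 bases before its start. The octamer core was found in 3 of the 9 windows (Zfp42 and the overlapping pair of Nanog, which hold the same site) and in 4.63% of 32851 windows of all genes. The SOX core was found in 3 of the 9 (1 of Esrrb and the same pair of Nanog) and in 12.6% of all windows. The KLF and SP box CCNCNCCC, the kind of site that KLF proteins bind, matched 9 times in Klf4 and 4 times in Zfp42, some of these matches overlapping. It occurred in all 9 windows, but also in 49.5% of all windows. The ESRRB half-site AAGGTCA (4.72% of all windows), the STAT motif TTCCNGGAA (1.15%) and the TCF motif CTTTGAT (3.73%) had 0 matches in the 9 windows. A match is a string of letters and not a bound site, and enhancers were not searched.

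Total counts ran from 14668489 to 16504204 per library, and the factors had 26 counts (Prdm14) to 3335 counts (Esrrb) in Ogt iKO replicate 1. The targeted gene, Ogt, had 2963 and 3108 reads in the controls and 437 and 389 in the Ogt iKO libraries, a log2 fold change of -2.96 (SE 0.0676, edgeR adjusted p 2.49e-07). The stem cell markers were all present, with 489 and 575 CPM of Pou5f1 in Ogt iKO and 894 and 850 CPM in control. Of these markers 9 of 9 were lower in Ogt iKO, where 32.0% of all genes tested were lower and 33.2% higher. The call of Epcam was lost under 3 of 12 other fits, and its log2 fold change moved from -0.20 to -0.04 when libraries were scaled by their totals. Of the 9 markers, 4 (Pou5f1, Sox2, Sall4 and Utf1) also stand in the list of partners of the factors. By the labels, CD90.2 was the antigen of the stem cells in the sort and CD326 that of the feeders to be left out. Epcam, the gene of CD326, had 280 and 287 CPM in Ogt iKO and 347 and 307 CPM in control, and Thy1, the gene of CD90, 25.6 and 8.90 CPM against 15.6 and 15.6. In common use the roles are the other way round, with CD326 on stem cells and CD90 on fibroblasts, and the marker lists here place Epcam and Thy1 by that use. Whether the label or the sort has them exchanged is not known, and how far the sort removed feeders was not tested. All 12 fibroblast markers had reads in every library. Their summed level was 2340 CPM in Ogt iKO replicate 1, against 580 in Ogt iKO replicate 2 and 924 and 1060 in the controls, so 1 library stood apart from the rest. The Ogt iKO libraries differed from the controls in opposite directions for most of these markers. With all libraries, 3 were called higher and 0 lower, but without Ogt iKO replicate 1 the counts were 3 higher and 9 lower, and without Ogt iKO replicate 2 they were 11 higher and 0 lower. All 10 factors were called lower in each of these fits. The summed level of the 10 factors was 613 and 647 CPM in these Ogt iKO libraries and 1150 and 1190 CPM in the controls. Of the markers of primitive endoderm 4 of 8 were higher, of trophectoderm 5 of 6 tested and of the 2-cell-like state 7 of 7, with 0 lower in each, beside 33.2% higher among all genes tested. Their summed levels, in that order, went from 39.5 and 44.6 to 92.8 and 120 CPM, from 14.1 and 17.6 to 48.7 and 51.3 CPM, and from 16.4 and 25.1 to 99.3 and 106 CPM. Without Ogt iKO replicate 2 the primitive endoderm count was 7 of 8, and Dab2 alone went from 10.7 and 14.1 CPM to 58.8 and 69.9, while Sox7, another of its markers, was not called (log2 fold change -0.51). Elf5, which defines trophoblast stem cells, had 2 and 0 counts in Ogt iKO and 0 and 0 in control, and Cdx2 was at 1.46 and 1.48 CPM against 1.10 and 1.17. The part of any such cells in the fall of the 10 factors was not tested.

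**Figure D1:**
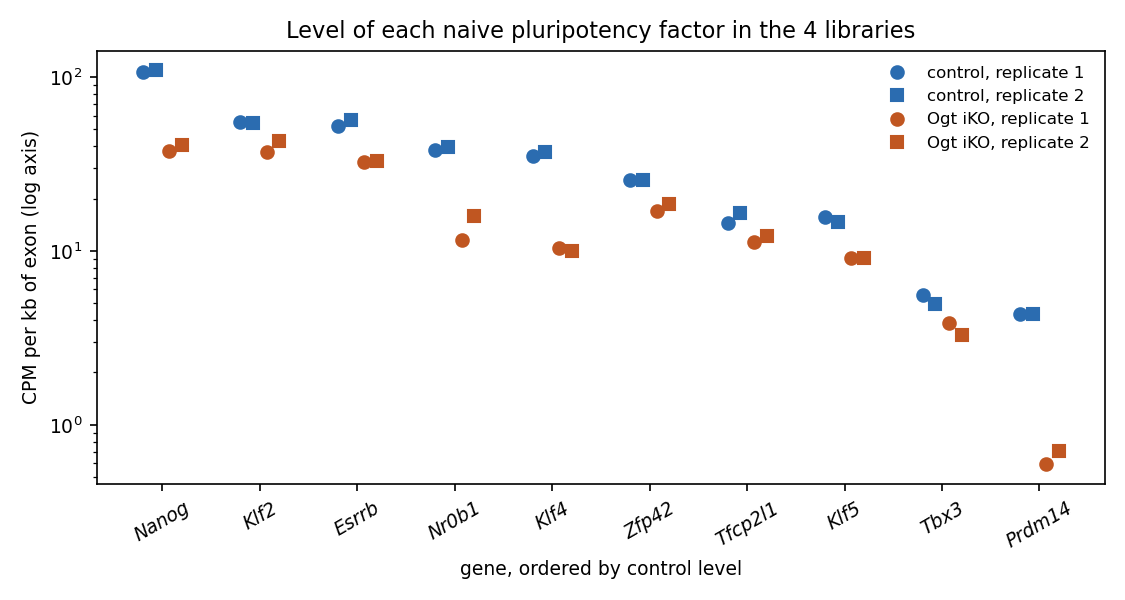
Level of each of the 10 factors per kb of exon (CPM per kb, log axis) in the 2 control (blue) and 2 Ogt iKO (orange) libraries, each point a library. Every orange point lies below both blue points of its gene, and Nanog, Nr0b1, Klf4 and Prdm14 show the widest gaps.

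The Krüppel-like factors KLF2, KLF4 and KLF5 are zinc-finger proteins that bind the same CACCC-type sites and can stand in for each other in stem cells. Klf4 (chr4:55527137-55532475) had 1652 and 1726 counts in control and 544 and 472 in Ogt iKO. The controls averaged 110 CPM ± 4.09 and the Ogt iKO libraries 31.1 CPM ± 0.983 (SD, n = 2 each), and the groups lay far apart compared with the gap inside either of them. Its log2 fold change was -1.82 (SE 0.0745, 95% interval -1.99 to -1.65, edgeR adjusted p 8.95e-07), so the Ogt iKO cells kept 28.4% of the control level. Klf5 (chr14:99298691-99313412) had 1262 and 1171 counts in control and 805 and 737 in Ogt iKO. It fell by 0.74 on the log2 scale (SE 0.074, adjusted p 5.16e-05, edgeR), with 47.1 and 47.5 CPM in the Ogt iKO libraries. Klf2 (chr8:72319062-72321654), the KLF gene tied most closely to OCT4, had 1575 and 1530 counts in control and 1165 and 1224 in Ogt iKO. The controls averaged 101 CPM ± 1.43 and the Ogt iKO libraries 73.5 CPM ± 7.61 (SD, n = 2 each), a log2 fold change of -0.46 (SE 0.0807, edgeR adjusted p 0.0012). The balance of the 3 genes therefore shifted.

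A ratio of read counts inside a library does not depend on how libraries are scaled. The controls had 1.05 and 1.13 reads of Klf4 per read of Klf2, and the Ogt iKO libraries had 0.467 and 0.386. Against Klf5, the ratio of Klf4 went from 1.31 and 1.47 to 0.676 and 0.64. The ratio of Klf5 to Klf2 moved less, from 0.801 and 0.765 to 0.691 and 0.602. In all 3 ratios the groups did not overlap, and an exact permutation test of 2 libraries against 2 cannot give a p below 0.333. The 95% interval of the log2 fold change of Klf4 (-1.99 to -1.65) lies below those of Klf5 (-0.91 to -0.57) and Klf2 (-0.64 to -0.27), while the latter intervals overlap each other.

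NANOG is the homeodomain protein that lets stem cells renew without LIF when it is abundant, and PRDM14 is a PR-domain zinc-finger protein that holds down FGF receptor signalling and DNA methyltransferase genes. Nanog (chr6:122707489-122714633) had 3709 and 3756 counts in control and 1444 and 1412 in Ogt iKO. Per kb of exon it was the highest of the 10 in control, at 107 and 109 CPM per kb, and dropped to 37.7 and 40.6. Its log2 fold change was -1.47 (SE 0.0618, 95% interval -1.61 to -1.32, edgeR adjusted p 9.96e-07). Prdm14 (chr1:13113428-13127163) was the scarcest factor and the one that fell most. It had 172 and 170 counts in control and 26 and 28 in Ogt iKO, or 11.1 and 11.1 CPM against 1.52 and 1.81. The log2 fold change was -2.74 (SE 0.198, 95% interval -3.19 to -2.28, edgeR adjusted p 1.06e-05), a level of 15% of control. Its fold change ranked 30 from the lowest among the 14525 genes tested. For each read of Nanog there were 0.0464 and 0.0453 reads of Prdm14 in control and 0.018 and 0.0198 in Ogt iKO, so Prdm14 fell further than Nanog in both libraries.

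TBX3 is a T-box factor that helps sustain Nanog. Tbx3 (chr5:119670534-119684724) had 573 and 505 counts in control and 436 and 338 in Ogt iKO. The log2 fold change, -0.56 with an SE of 0.107, came with the weakest p of the 10 (edgeR adjusted p 0.00176), and the groups were separated by 32.9 CPM in the lower control and 25.5 CPM in the higher Ogt iKO library. An antisense gene, Tbx3os1, covers 1.7% of the exon length of Tbx3, and the strand counted by the authors is not stated.

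ESRRB and TFCP2L1 stand where the WNT and LIF inputs enter the network. ESRRB is an orphan nuclear receptor repressed by TCF7L1, and TFCP2L1 is a CP2-family factor induced by LIF through STAT3. Esrrb (chr12:86361117-86521628) had 4898 and 5231 counts in control and 3335 and 3072 in Ogt iKO, the most reads of any of the 10. The controls averaged 329 CPM ± 17.4 and the Ogt iKO libraries 197 CPM ± 2.10 (SD, n = 2 each), a log2 fold change of -0.74 (SE 0.06, edgeR adjusted p 1.72e-05). Tfcp2l1 (chr1:118627923-118685168) had 2106 and 2385 counts in control and 1814 and 1766 in Ogt iKO. With all libraries it changed least of the 10, by -0.41 on the log2 scale (SE 0.077, 95% interval -0.58 to -0.23, edgeR adjusted p 0.00172), or to 75.4% of control. Its interval overlaps that of Klf2 (-0.64 to -0.27). Without control replicate 1 its log2 fold change was -0.51, beside -0.45 for Klf2 and -0.48 for Tbx3. The gap between the groups, from 136 CPM in the lower control to 114 CPM in the higher Ogt iKO library, was close to the gap of 136 to 155 CPM between the controls. The ratio of Tfcp2l1 to Esrrb reads rose from 0.43 and 0.456 to 0.544 and 0.575. Scaled by library totals only, the log2 fold change was -0.24 for Tfcp2l1 and -0.29 for Klf2, both still called (edgeR adjusted p 0.0276 and 0.0131).

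Zfp42 and Nr0b1 complete the set. ZFP42, also named REX1, is a zinc-finger protein related to YY1, and NR0B1, also named DAX1, is an orphan nuclear receptor that binds OCT4 and restrains it. Zfp42 (chr8:43295067-43307009) had 745 and 739 counts in control and 545 and 547 in Ogt iKO, and fell to 69.7% of control (log2 fold change -0.52, SE 0.0839, edgeR adjusted p 7.01e-04). Its replicates lay close together in CPM, at 48.1 and 48.2 in control and 31.9 and 35.3 in Ogt iKO. Nr0b1 lies on the same chromosome as Ogt (chrX:86191775-86195947) and had 1061 and 1104 counts in control and 358 and 442 in Ogt iKO. Its log2 fold change was -1.51 (SE 0.13, 95% interval -1.81 to -1.21, edgeR adjusted p 2.35e-05). The Ogt iKO replicates of Nr0b1 lay apart, at 20.9 and 28.5 CPM, and its log2 fold change was -1.30 without replicate 1 of that group and -1.77 without replicate 2. There were 1.42 and 1.49 reads of Nr0b1 per read of Zfp42 in control and 0.657 and 0.808 in Ogt iKO. The commonly used reporter gene of the naive state was thus among the less changed of the 10.

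**Figure D2:**
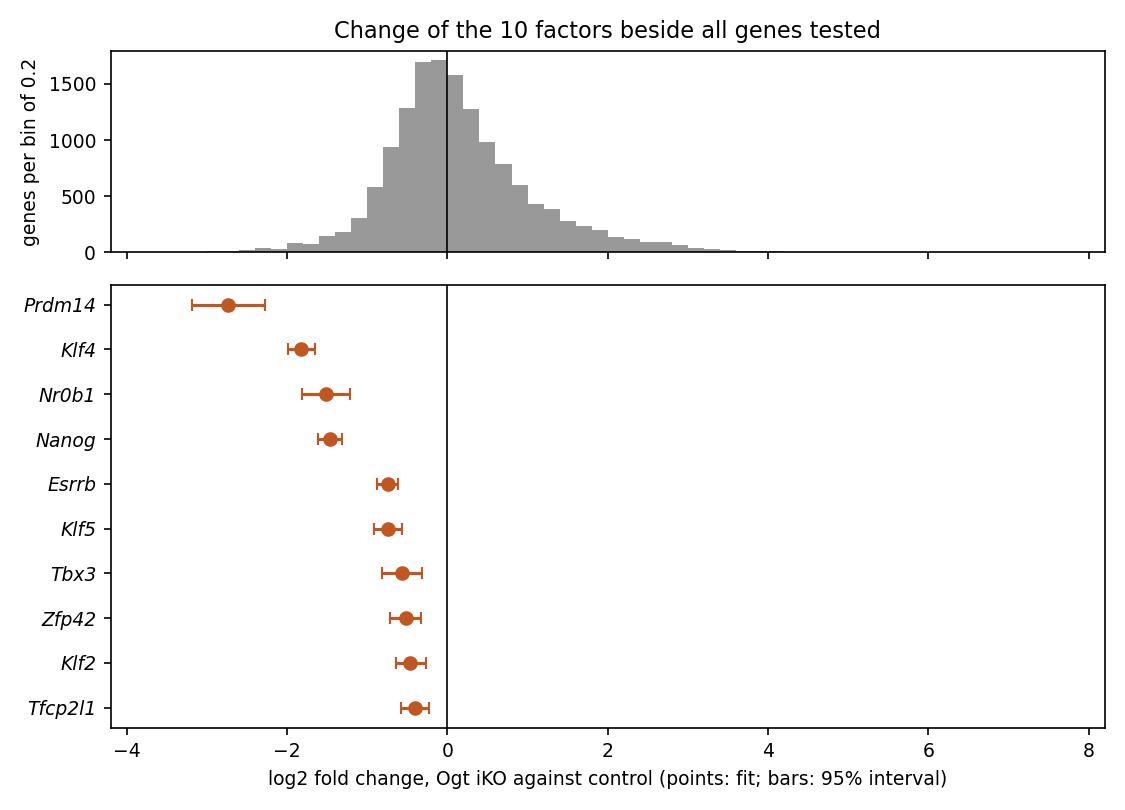
Log2 fold change of each factor, Ogt iKO against control (points), with its 95% interval (bars), below a histogram of the same value over all 14525 genes tested. Prdm14, Klf4, Nr0b1 and Nanog form a group from -2.74 to -1.47 whose intervals do not reach those of the other 6, which lie from -0.74 to -0.41.

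The order of the factors by level changed with these unequal falls. In control, Nanog led at 108 CPM per kb, the mean of its libraries, ahead of Klf2 (54.6) and Esrrb (54.4), which were not separated by their spread. Nr0b1 (38.9), Klf4 (36.0), Zfp42 (25.6), Tfcp2l1 (15.4), Klf5 (15.2), Tbx3 (5.28) and Prdm14 (4.33) followed, with Tfcp2l1 and Klf5 again not separated. In Ogt iKO, Klf2 (39.8 CPM per kb) and Nanog (39.1) overlapped at the top and Esrrb was at 32.5. Zfp42 (17.8) now stood above Nr0b1 (13.7), and Klf4 (10.2) had moved below Tfcp2l1 (11.7). Klf5 (9.09), Tbx3 (3.57) and Prdm14 (0.649) remained the lowest in that order. Exon lengths of all annotated transcripts were used, so a gene with unused long exons reads too low on this scale.

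**Figure D3:**
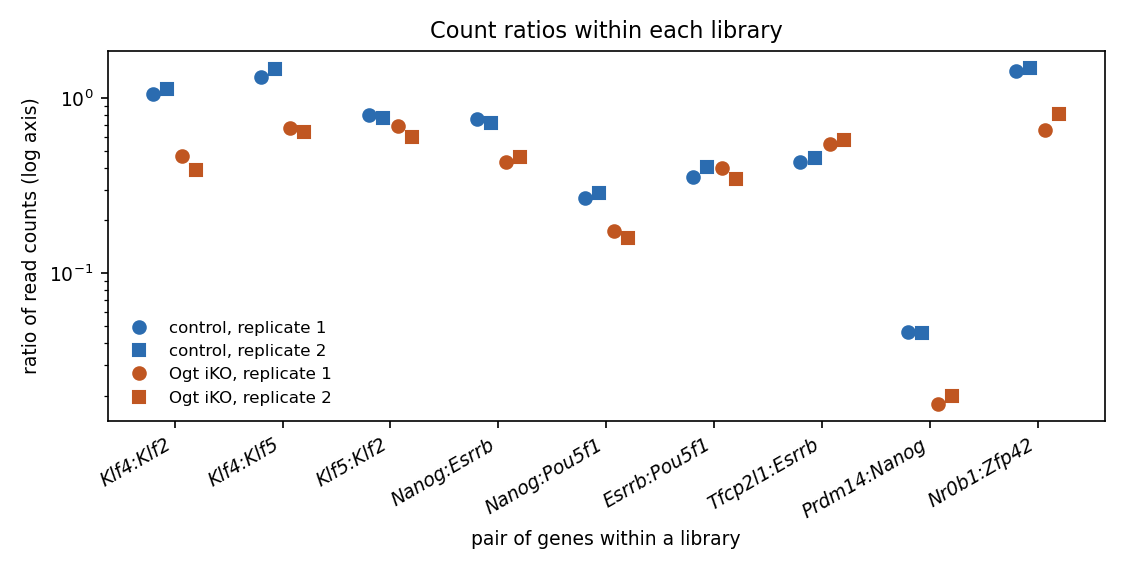
Ratio of read counts of 9 pairs of genes inside each library (log axis), control in blue and Ogt iKO in orange. Klf4 lost ground to Klf2 and Klf5, and Nanog to Esrrb and Pou5f1, while Esrrb to Pou5f1 overlapped between the groups.

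The partners of the factors were examined next, from lists chosen with earlier results of these data known. Of 8 genes for DNA-binding partners and cofactors, 7 were lower and 0 higher, with a median log2 fold change of -0.68, where 32.0% of all genes tested were lower and 33.2% higher. Sox2 fell most, by 1.59 (SE 0.0632, edgeR adjusted p 7.55e-07), and Pou5f1 by 0.71. Esrrb kept step with Pou5f1, at 0.354 and 0.401 reads per read of Pou5f1 in control and 0.399 and 0.345 in Ogt iKO, while Nanog went from 0.268 and 0.288 to 0.173 and 0.158. Cbfa2t2, which encodes a corepressor that binds PRDM14, fell by 0.56. Nr5a2, which encodes a nuclear receptor that can act in place of OCT4 in reprogramming, fell by 0.69, Utf1 by 0.86 and Zfp281 by 0.67. Ncoa3, which encodes the coactivator of ESRRB, had 342 and 378 CPM in Ogt iKO and 360 and 400 CPM in control and was not called (log2 fold change -0.08, SE 0.0738, edgeR adjusted p 0.368), although it was called without Ogt iKO replicate 2.

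The LIF input had 6 genes lower and 3 higher of 9, with a median log2 fold change of -0.40. Among all genes tested 32.0% were lower and 33.2% higher, so the share higher was close to that of all genes. The receptor subunits Lifr (-0.76) and Il6st (-0.40) were lower, as were the STAT3 targets Pim1 (-1.09), Socs3 (-0.95) and Pim3 (-0.82). The kinases Jak2 (1.89) and Jak1 (0.74) and the ligand Lif (1.04) were higher, with Jak2 at 45.6 and 35.6 CPM in Ogt iKO and 11.2 and 10.8 CPM in control. Stat3 itself had a log2 fold change of -0.30 (edgeR adjusted p 0.00465), and this call was lost with library totals (-0.13, adjusted p 0.129). Klf4, a target of this input, fell further than any gene of the list, and Tfcp2l1, another of its targets, less than 4 of the 6 that were lower.

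Of 9 genes of the WNT input, 3 were lower and 1 higher, close to the 32.0% lower and below the 33.2% higher of all genes tested. Tcf7l1, the repressor of Esrrb and Nanog, was itself lower by 1.01 (SE 0.0569), with 87.4 and 85.6 CPM in Ogt iKO and 173 and 175 CPM in control. Axin2, a common readout of WNT signalling, rose by 1.37, from 17.1 and 15.6 CPM to 39.6 and 45.0. Tcf7 fell by 0.48, and Ctnnb1, which encodes beta-catenin, was not called (0.05, SE 0.0625, edgeR adjusted p 0.499) except with library totals. These counts moved with the fit. The number lower was 5 without Ogt iKO replicate 1, and the number higher was 2 without control replicate 2 and 3 with library totals, under which the median of the list went from -0.17 to 0.00.

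Most FGF and ERK genes were lower too. Of 13, 11 were lower and 1 higher (32.0% and 33.2% of all genes tested), and the median log2 fold change of -0.74 equals that of the 10 factors. Fgf4, the ligand and a target of OCT4 and SOX2, fell by 1.49 (SE 0.103), from 255 and 267 CPM to 81.4 and 104. The genes induced by ERK fell by 3.09 for Etv4, 1.52 for Spry4, 1.08 for Etv5, 0.75 for Spry2 and 0.74 for Dusp6. The receptors differed, with Fgfr1 lower by 0.62 and Fgfr2, a gene that PRDM14 is known to repress, higher by 0.79 (SE 0.0827, edgeR adjusted p 6.44e-05).

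Other genes of the naive state did not all follow the 10 factors. Of 15, 10 were lower and 2 higher, with a median log2 fold change of -0.43, beside 32.0% lower and 33.2% higher of all genes tested. Tcl1, which encodes a coactivator of AKT, fell by 2.83 (SE 0.189), with 2.63 and 2.32 CPM in Ogt iKO and 15.9 and 19.5 CPM in control. Gbx2, with 43.5% of its exon length under a gene on the opposite strand, fell by 2.12, Fbxo15 by 1.23 and Manba by 1.11. Dppa3, also named Stella, rose by 0.79 (SE 0.0954, edgeR adjusted p 1.36e-04) and Tex19.1 by 0.82. Dppa5a, at 432 and 512 CPM in Ogt iKO and 477 and 485 in control, was not called (-0.03, SE 0.0799), nor was Tdh (-0.04) or Morc1 (-0.08), although Dppa5a and Tdh were called without Ogt iKO replicate 2. The call of Dppa2 (-0.35) was lost with library totals, and that of Sox15 (-0.37) under 5 of the 12 other fits, among them DESeq2 and the fits without Ogt iKO replicate 1 or control replicate 2.

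Genes of the next stage, the formative and primed epiblast, were mostly lower as well. Of 11, 7 were lower and 2 higher, with a median of -0.66, beside 32.0% lower and 33.2% higher of all genes tested. The call of Sox3 (-0.40) was lost with library totals (-0.23) and with DESeq2. Otx2, the factor that drives the exit from the naive state, fell by 1.37, from 27.1 and 27.4 CPM to 10.1 and 11, Pou3f1 by 0.69, Zic2 by 0.87 and Tcf15 by 2.49. Fgf5, a standard marker of the primed state, rose by 2.03 (SE 0.163, edgeR adjusted p 1.7e-05), from 3.88 and 3.72 CPM to 14.7 and 16.3, and Sall2 rose by 0.86.

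**Figure D4:**
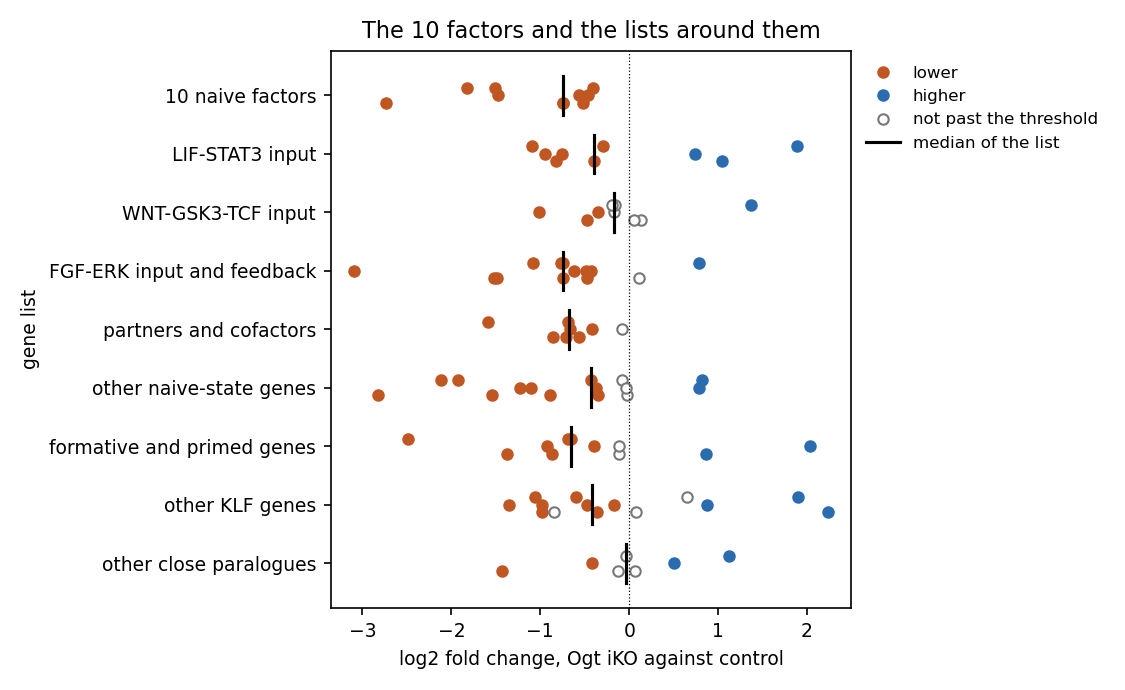
Log2 fold change, Ogt iKO against control, of every tested gene (points) of the 10 factors and of 8 lists around them, with the median of each list as a black bar. Orange points passed the threshold downward, blue points upward and open points did not pass. All 10 factors are orange, while the other lists drawn hold open points, blue points or both. The list of 9 stem cell markers, also all lower, is not drawn.

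Relatives of the factors moved both ways. Of the 14 other KLF genes, 8 were lower and 3 higher, with a median of -0.42, beside 32.0% lower and 33.2% higher among all genes tested. Klf10 fell by 1.35 and Klf13 by 0.98, while Klf6 rose by 0.87 and Klf15 by 2.23, from 2.07 and 1.76 CPM to 8.48 and 9.54. Klf17 had 2.40 and 2.19 CPM in Ogt iKO and 4.14 and 5.48 in control and fell by 1.06. Klf9 went from -0.17 to 0.00 with library totals, and was not called there or in 3 more of the 12 other fits, including those without Ogt iKO replicate 2 or control replicate 2. Among the 9 close paralogues of the other factors, Esrrg and Nr0b2 had at most 6 counts in any library and were not tested. Of the 7 tested, 2 were lower and 2 higher, shares below those of all genes tested. Esrra, the paralogue of Esrrb, fell by 1.43 (SE 0.107, edgeR adjusted p 1.2e-05), and Ubp1, related to Tfcp2l1, by 0.42. Tbx2 (1.12) and Prdm1 (0.50) were higher, calls that were not made without Ogt iKO replicate 1, control replicate 1 or control replicate 2, when the number higher was 0, nor with DESeq2 or with no filter. Yy1 (-0.04), Yy2 (0.06) and Tfcp2 (-0.13) were not called, and all of the exon length of Yy2 lies under the same-strand gene Mbtps2, which makes its value uncertain. The median of these 7 was -0.04, and 0.13 with library totals.

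**Figure D5:**
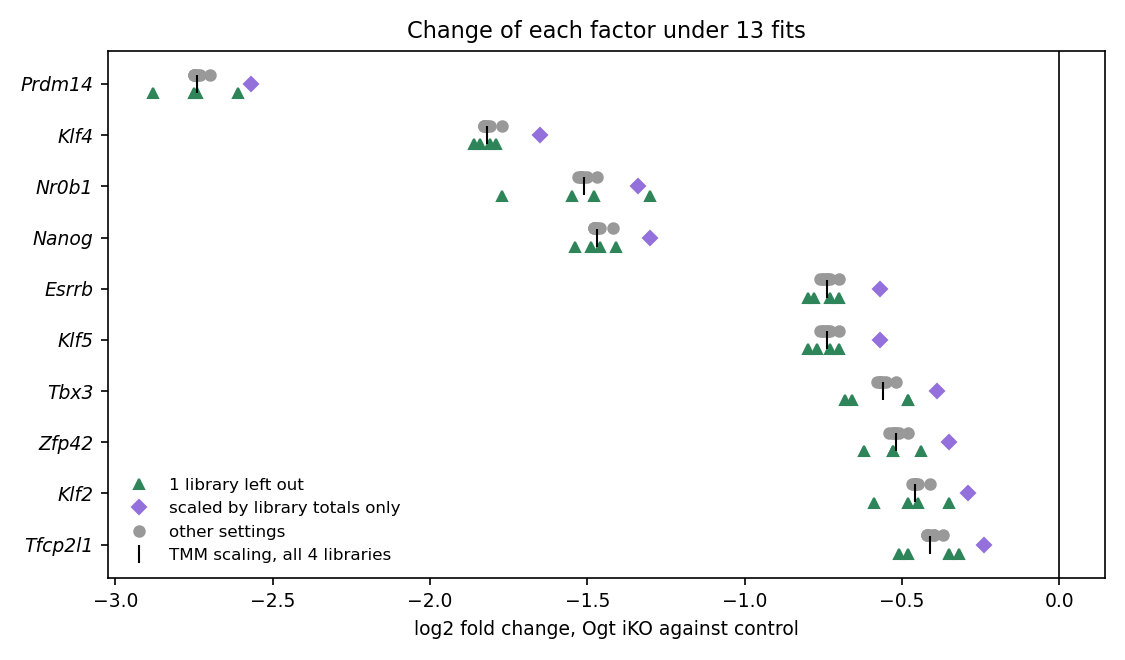
Log2 fold change of each factor under 13 fits of the same counts. Black bars mark all 4 libraries with TMM scaling, triangles the fits without 1 library, diamonds scaling by library totals only and grey points the other settings. No point of the 10 factors reaches 0.

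The 10 calls did not rest on 1 library or on 1 scaling. In each of the 12 other fits of the same counts, all 10 factors were lower with an adjusted p under 0.05, the largest being 0.0276 for Tfcp2l1. Without Ogt iKO replicate 1, the library with the highest fibroblast markers, the log2 fold changes were -1.84 for Klf4, -1.41 for Nanog and -0.35 for Klf2, against -1.82, -1.47 and -0.46 with all libraries. Reads that also match related sequences could touch 4 of the factors. Transcripts of Gm48640 (242 bp aligned, 91.3% identity to Klf4), Gm6007 (822 bp to Klf5, at the lowest identity searched, 90%), Nanog-ps1 (245 bp, 97.6%) and Zfp42-ps1 (266 bp, 98.1%) resemble them. Whether reads with several matches were counted is not stated. Opposite-strand genes also cover 14.1% of the exon length of Pou5f1, 14.6% of Ctnnb1, 14.5% of Pim1, 12.9% of Ubp1, 9.5% of Sall4 and 8.6% of Pou3f1, and reads from both strands cannot be told apart if strand was not used in counting.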

How the data were processed

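Gene expression was measured by RNA-seq in 4 libraries, 2 per group, grouped by their titles. The authors deposited raw counts per gene symbol for each library. STAR, Picard and build mm10 are named in the submitters' processing notes, and a stranded kit for mRNA per the labels' protocols. Versions, the annotation, the strand counted and the treatment of reads with several matches are not given in the sources used here. The tables had 0 rows that name no gene. The test across genes was the quasi-likelihood test of edgeR 4.0.16 under R 4.3.3 (TMM scaling, filterByExpr, all 4 libraries in a single fit, no covariate), with Benjamini-Hochberg adjustment over 14525 genes and a threshold of 0.05. CPM are counts per 1000000 counts on TMM-scaled totals. The SE is the fold change over the square root of F, and intervals are at 95%. The fit was tested on simulated data. A count of 0 would allow 3 counts, or 0.175 to 0.195 CPM, for counting error only. Replicates differed by more than sampling noise (chi-square per degree of freedom 5.97 in Ogt iKO and 3.66 in control).

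Gene positions came from RefSeq and exon lengths from GENCODE, both on GRCm38, the assembly of mm10. Similar transcripts were sought with BLAST 2.17.0 (at least 240 bp and 90% identity). All members are named in the text, with Ogt, up to 3 called genes of each list by smallest adjusted p, and genes tied to a member as ligand, receptor, partner, target or paralogue. The remaining genes named were chosen after their values were seen. The members and lists were chosen with earlier results of these data known. Alternatives were RLE, upper-quartile and total-count scaling, DESeq2 1.42.0, other filters, a robust spread, the replicate block, stricter thresholds and leaving out each library.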

Additional observations from a re-analysis of the deposited data

How the results depend on the processing

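All 10 factors were lower under every fit tried, and 0 were higher. Across the 12 other fits the log2 fold change of Klf2 ran from -0.59 to -0.29, that of Tfcp2l1 from -0.51 to -0.24, and that of Prdm14 from -2.88 to -2.57. Library totals moved the median of all genes tested from 0.02 to 0.19 and that of the 10 factors from -0.74 to -0.57. Under that scaling the median went from -0.40 to -0.23 for the LIF list and from -0.43 to -0.26 for other naive-state genes. It went from -0.42 to -0.25 for other KLF genes and from -0.74 to -0.57 for the FGF list. For partners it went from -0.68 to -0.51, and for formative and primed genes from -0.66 to -0.49. Counts in 3 of the pathway and family lists and 2 of the marker lists moved by over 1.5 times. In the WNT list, the number lower was 5 with RLE factors and 5 with a robust spread (3 to 5 with 1 library left out, 5 without Ogt iKO replicate 1), against 3, and the number higher was 3 with library totals (1 to 2 with 1 library left out, 2 without control replicate 2), against 1. In the FGF list, the number higher was 2 with library totals and 2 with upper-quartile factors, against 1. Among the paralogues, the number higher was 0 with DESeq2, 0 with no filter, 1 with a CPM of at least 1 in 2 libraries, 0 at an adjusted p under 0.01 and 0 with glmTreat against a fold of 1.2 (0 to 2 with 1 library left out), against 2. The marker lists were refitted after seeing the data. With 1 library left out, the fibroblast markers had 0 to 9 lower (9 without Ogt iKO replicate 1), against 0, and 3 to 11 higher (11 without Ogt iKO replicate 2), against 3, and the primitive endoderm markers had 4 to 7 higher (7 without Ogt iKO replicate 2), against 4. Same-numbered deviations correlated at 0.0764 across genes, a single value that cannot show whether the replicate numbers pair the samples. With the replicate block, 10 factors were lower and 0 higher. Prdm14, with 26 and 28 counts in Ogt iKO, has the widest interval of the 10.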
